A study of Mus musculus with 8 samples.

Results

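Binding of PPARb and of RNA polymerase II (Pol II) was compared site by site in 1 population of mouse cells in culture, by chromatin immunoprecipitation with sequencing (ChIP-seq). The members were all peaks of the PPARb list and of the Pol II list on chromosomes 1 to 19, X and Y: 26404 PPARb peaks and 13267 Pol II peaks, 39671 of the 109649 peaks in the 6 peak lists of the series. A PPARb peak and a Pol II peak were called a pair when their centres lay less than 200 bp apart, which for peaks of 200 bp means that they overlap. The PPARb and Pol II libraries came from cells labelled as oligodendrocytes, grown at passage 7 from neural stem cells of mixed FvB and C57BL6 background in medium with IGF-1 and the thyroid hormone T3. All of these cells carried introduced PPARb with an HA tag, so the level of PPARb in them is not that of unmodified cells, and no cells without the introduced PPARb were compared. The Pol II antibody was raised against the heptad repeat of the polymerase tail. A second population, isolated from C57BL6 mouse brain at passage 0 with no introduced PPARb in its labels, is used below for its PPARb and Qki-5 peaks; Qki-5 is a form of Quaking, an RNA-binding protein, found in the nucleus. Each antibody had 1 library and 1 input library served as the control of both lists. No difference below can therefore be set against a spread between replicates. Peaks are not replicates either, and the 95% intervals given cover counting error only.

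PPARb, encoded by Ppard, is a nuclear receptor for fatty acids that binds DNA as a partner of a retinoid X receptor (RXR), at response elements made of repeats of the letters AGGTCA, and is known for driving genes of lipid burning and storage. Pol II transcribes protein-coding genes; it gathers at gene starts, and at many genes it waits just downstream of the start before it is released. A factor list and a Pol II list laid over each other therefore separate sites where the factor sits with a peak of polymerase from sites where it does not. This does not by itself tell promoters from more distant sites, often called enhancers.

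The label of the cells was checked against marker genes through Pol II. A Pol II peak was sought within 1000 bp of a start or, for genes with no listed start, of either gene end. It was found at 2 of 8 oligodendrocyte markers, Cnp (height 21.7) and Olig1 (22.5). None lay there at, among others, Mog, Mag, Sox10 or Olig2. Mbp counted as having none, but it had no listed start, so starts inside that gene were not examined. A Pol II peak of 6.83 lay inside Mbp, 47340 bp from its nearer end. All 4 neural stem cell markers had one, at 14.5 for Nes, 16.1 for Fabp7, 19.3 for Sox2 and 28.1 for Vim. Of the other markers, 1 of 4 astrocyte genes (Slc1a3, 13.3) and 1 of 4 neuron genes (Tubb3, 8.04) had a Pol II peak, and no microglia or endothelial gene of 4 each had one. By Pol II peaks the population thus showed the stem cell markers rather than most oligodendrocyte markers, and it is called the differentiated cells below only after its label.

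The PPARb library held 22471011 tags and the Pol II library 24880851. Tags in peaks were 2.78% of the PPARb library and 1.39% of the Pol II library. Peak height is the authors' normalized tag count, in tags per 10000000. It ran from 4.45 over a median of 9.79 to 50.7 for PPARb and from 4.42 over 8.84 to 102.9 for Pol II, where 1 tag is worth 0.445 and 0.402. The caller's cutoff over the genome was 13 tags for PPARb and 14 for Pol II, although some listed peaks have fewer tags, such as the 11 of a Pol II peak in Erbb4. A peak without a partner is one whose partner was not detectable at this depth and by these filters. Peaks were called in the caller's narrow mode, and candidates less than 4-fold above the surrounding 10000 bp had been removed, 2202 for PPARb and 1786 for Pol II. Signal spread evenly along a gene is not listed as a peak under that filter.

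Promoter sequences of 6 genes show what the pairing rule compares. Each run is the 250 bases upstream of the start in the direction of transcription, from RefSeq on GRCm38.p6, the build that mm10 is. Capitals mark 4 motifs on either strand. GGGCGG is the GC box, bound by Sp factors. CCAAT is the box bound by the factor NF-Y. TATAAA is the TATA box of the core promoter, and the motif AGGTCA is 1 repeat of a nuclear receptor element. Motif matches did not overlap one another in the runs shown. Rps12, for a protein of the small ribosomal subunit (chr10:23787210-23787459, minus strand), had the pair whose lower rank of the 2 was highest; its run holds none of the 4 motifs. Polr2a, for the largest Pol II subunit (chr11:69758634-69758883, minus strand), had the tallest Pol II peak of all. Etfb, for a subunit of the flavoprotein that takes electrons from fatty acid oxidation (chr7:43443822-43444071, plus strand), had the tallest PPARb peak at a paired start of its pathway. Plin2, for a lipid droplet coat protein (chr4:86670060-86670309, minus strand), had PPARb alone. Cpt1a, for the enzyme that admits fatty acids to mitochondria (chr19:3323051-3323300, plus strand), had Pol II alone at its start. Gadd45g, a stress response gene (chr13:51846425-51846674, plus strand), had the tallest Pol II peak without a PPARb partner.
Rps12: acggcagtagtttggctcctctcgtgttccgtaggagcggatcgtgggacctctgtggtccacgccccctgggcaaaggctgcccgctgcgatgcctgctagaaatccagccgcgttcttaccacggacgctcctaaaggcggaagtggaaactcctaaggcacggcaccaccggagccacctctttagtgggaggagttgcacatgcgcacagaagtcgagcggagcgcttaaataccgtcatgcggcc
Polr2a: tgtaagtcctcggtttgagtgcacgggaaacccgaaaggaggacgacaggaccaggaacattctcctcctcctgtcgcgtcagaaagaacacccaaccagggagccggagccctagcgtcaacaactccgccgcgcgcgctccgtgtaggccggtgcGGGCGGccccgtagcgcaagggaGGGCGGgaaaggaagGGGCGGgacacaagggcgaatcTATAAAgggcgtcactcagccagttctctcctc
Etfb: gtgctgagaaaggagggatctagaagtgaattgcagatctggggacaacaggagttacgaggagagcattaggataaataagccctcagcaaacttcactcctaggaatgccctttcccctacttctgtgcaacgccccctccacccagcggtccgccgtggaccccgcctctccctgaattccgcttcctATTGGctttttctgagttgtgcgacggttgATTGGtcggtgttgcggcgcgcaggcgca
Plin2: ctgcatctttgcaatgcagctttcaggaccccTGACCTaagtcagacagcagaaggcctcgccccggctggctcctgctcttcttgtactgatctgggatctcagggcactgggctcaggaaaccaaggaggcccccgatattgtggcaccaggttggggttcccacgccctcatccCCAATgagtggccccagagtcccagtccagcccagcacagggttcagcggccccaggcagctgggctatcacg
Cpt1a: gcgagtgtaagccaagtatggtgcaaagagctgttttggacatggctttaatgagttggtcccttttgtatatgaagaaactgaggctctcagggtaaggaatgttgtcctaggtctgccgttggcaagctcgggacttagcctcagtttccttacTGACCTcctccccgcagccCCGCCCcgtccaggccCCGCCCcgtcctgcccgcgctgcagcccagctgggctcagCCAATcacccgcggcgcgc
Gadd45g: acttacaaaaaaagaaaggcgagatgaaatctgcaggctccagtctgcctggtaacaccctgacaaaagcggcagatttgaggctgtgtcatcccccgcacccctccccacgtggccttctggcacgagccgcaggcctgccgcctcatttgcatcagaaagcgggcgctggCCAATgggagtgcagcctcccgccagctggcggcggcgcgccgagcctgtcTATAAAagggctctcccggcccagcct

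At these starts the peaks were placed as follows. At Rps12 PPARb reached 24.5 at 146 bp upstream of the start and Pol II 45.0 at 45 bp downstream. At Polr2a PPARb reached 12.9 at 86 bp upstream and Pol II 102.9 at 81 bp downstream. At Etfb PPARb reached 29.4 at 37 bp upstream and Pol II 8.84 at 64 bp downstream. In all 3 the PPARb centre lay upstream of the start, inside the letters shown, and the Pol II centre beyond their end. At Plin2 the PPARb peak of 9.35 lay 17 bp downstream of the start, and the nearest Pol II peak was 57890 bp away. Cpt1a had a Pol II peak of 7.64 at 43 bp downstream and its nearest PPARb peak was 2196 bp away. At Gadd45g PPARb (12.9, 184 bp upstream) and Pol II (82.8, 32 bp downstream) were 216 bp apart, just too far to be a pair.

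Most Pol II peaks had a PPARb partner, and most PPARb peaks had no Pol II partner. Of the 26404 PPARb peaks 9639 were paired with Pol II, 36.5% (95% exact Clopper-Pearson interval 35.9 to 37.1), and 16765 were not. Of the 13267 Pol II peaks 9638 were paired with PPARb, 72.6% (71.9 to 73.4), and 3629 were not. The counts of pairs differ by 1 because a Pol II peak at Vldlr lay within reach of 2 PPARb peaks. These 2 shares, 36.5% and 72.6%, are themselves the background against which any group of peaks below is read. The lists differ in length, and with the PPARb list shortened to its tallest 13267 peaks both shares were 53.0%.

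Paired centres were close. Their distance had a median of 68 bp (quartiles 31 and 117). Of PPARb peaks 13.9% had the nearest Pol II centre within 49 bp, 4.6% had it at 150 to under 200 bp and 2.82% at 200 to 249 bp, so the count thinned without a step at the limit. The 207 PPARb peaks in the last 10 bp inside the limit had heights of 4.9 to 28.9 with a median of 12.5, and the 165 in the first 10 bp outside it 5.34 to 27.6 with a median of 12.5. The Pol II peaks of those bands ran from 5.22 to 67.1 (median 10.0) inside and from 4.82 to 61.9 (median 10.9) outside. Peaks on either side of the limit thus had like heights.

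**Figure D1:**
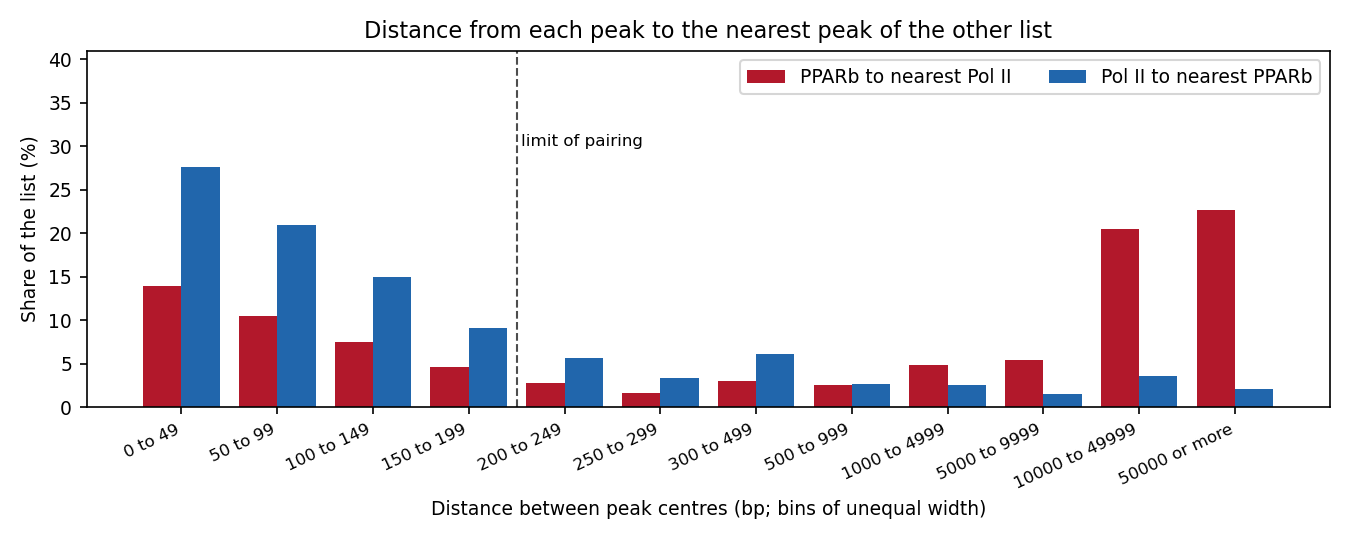
Distance from each PPARb peak to the nearest Pol II peak (red) and from each Pol II peak to the nearest PPARb peak (blue), as a share of the list in percent, in distance bins of unequal width in bp. Pol II peaks crowd at the short end, with 27.6% within 49 bp of a PPARb centre, while 20.5% of PPARb peaks lie 10000 to 49999 bp and 22.7% at least 50000 bp from the nearest Pol II peak.

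Being unpaired meant different things for the 2 proteins. Among Pol II peaks without a PPARb partner, 65.0% (63.4 to 66.6) still had a PPARb peak within 1000 bp. Among PPARb peaks without a Pol II partner, 15.8% (15.3 to 16.4) had a Pol II peak within 1000 bp and 64.2% (63.5 to 64.9) within 50000 bp. Near gene starts the 2 figures were 71.5% of 2562 Pol II peaks and 47.8% of 4069 PPARb peaks; away from starts they were 49.4% of 1067 and 5.62% of 12696. Unpaired Pol II was thus mostly a near neighbour of PPARb, and unpaired PPARb away from starts mostly had no Pol II peak within 1000 bp, although 59.2% of it had one within 50000 bp.

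Position relative to genes differed among the kinds of site. A peak is called near a start when its centre lay within 1000 bp of a listed start of a protein-coding gene or, for the genes with no start in the table used, of either gene end. Of PPARb peaks with Pol II 57.7% (56.7 to 58.7) were near, against 24.3% (23.6 to 24.9) of PPARb peaks without Pol II. Of Pol II peaks with PPARb 57.6% (56.6 to 58.6) were near, against 70.6% (69.1 to 72.1) of Pol II peaks without PPARb. Sites with PPARb alone were therefore the most distant kind and sites with Pol II alone the closest. Inside a protein-coding gene but away from its start lay 23.0% of PPARb peaks with Pol II and 41.5% of those without. More than 50000 bp from any start lay 16.0% of PPARb peaks with Pol II, 30.6% of those without, and 9.23% of Pol II peaks without PPARb.

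Along the gene, Pol II sat downstream of PPARb. At starts with a listed strand, PPARb peaks with Pol II were centred at a median of 7 bp upstream (-7; quartiles -70 and 58, n = 4658) and their Pol II partners at 60 bp downstream (quartiles -33 and 112, n = 4656). The Pol II centre lay downstream of its PPARb partner at 3035 of 4658 pairs, 65.2% (63.8 to 66.5), by a median of 42.5 bp (quartiles -34 and 109). Without starts that have another on the opposite strand within 1000 bp, the median was 44 bp over 4194 pairs.

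The same order held for peaks that were not paired. PPARb peaks without Pol II were centred at a median of -32 bp, with quartiles of -140 and 100 (n = 3355). They were the loosest kind, with 36.1% of these near peaks more than 200 bp from the start against 15.6% of PPARb peaks with Pol II. Pol II peaks without PPARb were centred at 83 bp downstream (quartiles 1 and 159, n = 2147), and 75.0% of them lay downstream. Where such a Pol II peak had its nearest PPARb peak 200 to 1000 bp away, Pol II was the downstream one at 68.3% (65.9 to 70.6) of 1556 sites. Part of the Pol II peaks without a partner were thus starts where PPARb sat upstream, beyond the pairing limit.

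**Figure D2:**
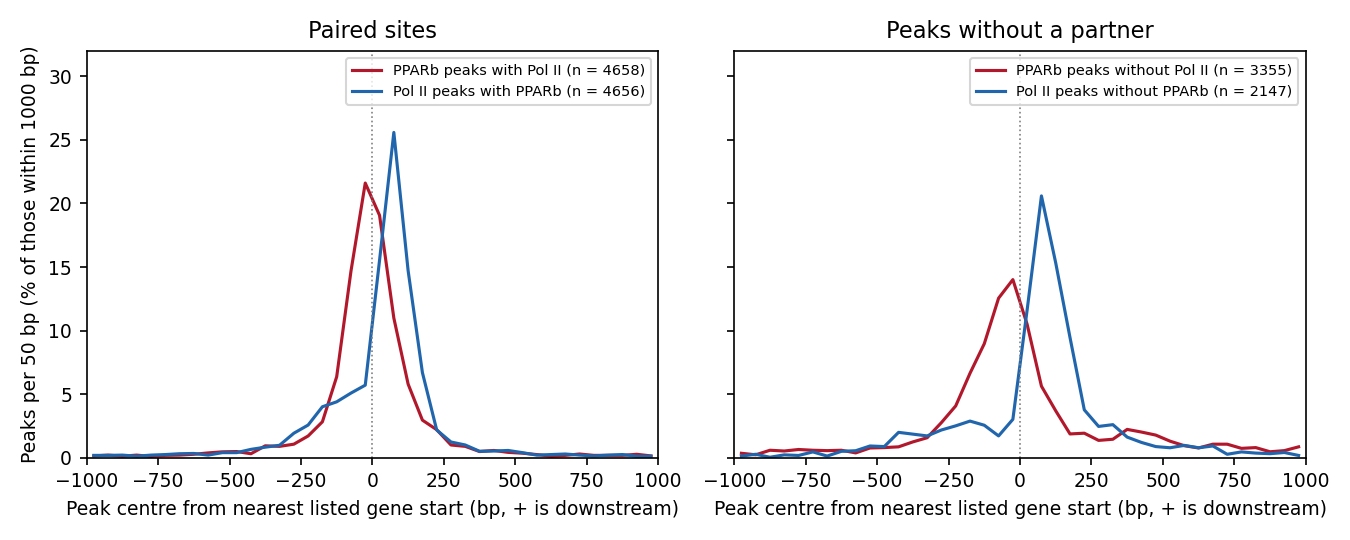
Position of peak centres relative to the nearest listed gene start, in bp with downstream positive, as percent of the peaks of each kind within 1000 bp, in 50 bp steps. Left, paired sites (PPARb median -7 bp, Pol II median 60 bp). Right, peaks without a partner (PPARb median -32 bp, Pol II median 83 bp). In both panels the Pol II curve peaks downstream of the start and the PPARb curve at or before it.

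Height went with pairing for PPARb. The median PPARb height was 12 (quartiles 9.35 and 15.1) at peaks with Pol II and 8.46 (6.68 and 11.1) at peaks without. Near starts the medians were 11.6 with Pol II and 9.79 without, and away from starts 12.5 with Pol II and 8.01 without, so the gap was wider away from starts. The share of PPARb peaks with Pol II rose through the list, at 9.50%, 19.1%, 34.2%, 49.5% and 61.6% over 5 height classes from lowest to tallest. Away from starts those shares ran from 5.31% to 56.4%, and near starts from 29.2% to 68.0%. Of the tallest 100 PPARb peaks 70.0% (60.0 to 78.8) were paired. The input tags under the peaks had a median of 2.0 in both kinds, and their part in the result was not tested.

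For Pol II no such rise was seen. The median Pol II height was 8.84 at peaks with PPARb and 8.84 at peaks without, and near starts it was 10.4 in each. Over 5 height classes the share of Pol II peaks with PPARb was 68.1%, 75.6%, 76.6%, 74.1% and 67.1%, lowest at both ends. Of the tallest 100 Pol II peaks 52.0% (41.8 to 62.1) had a PPARb partner, against the 72.6% of the whole list. Near starts the share was 59.9% in the lowest class and 67.2% in the tallest, so low Pol II peaks there were not more often paired than tall ones.

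**Figure D3:**
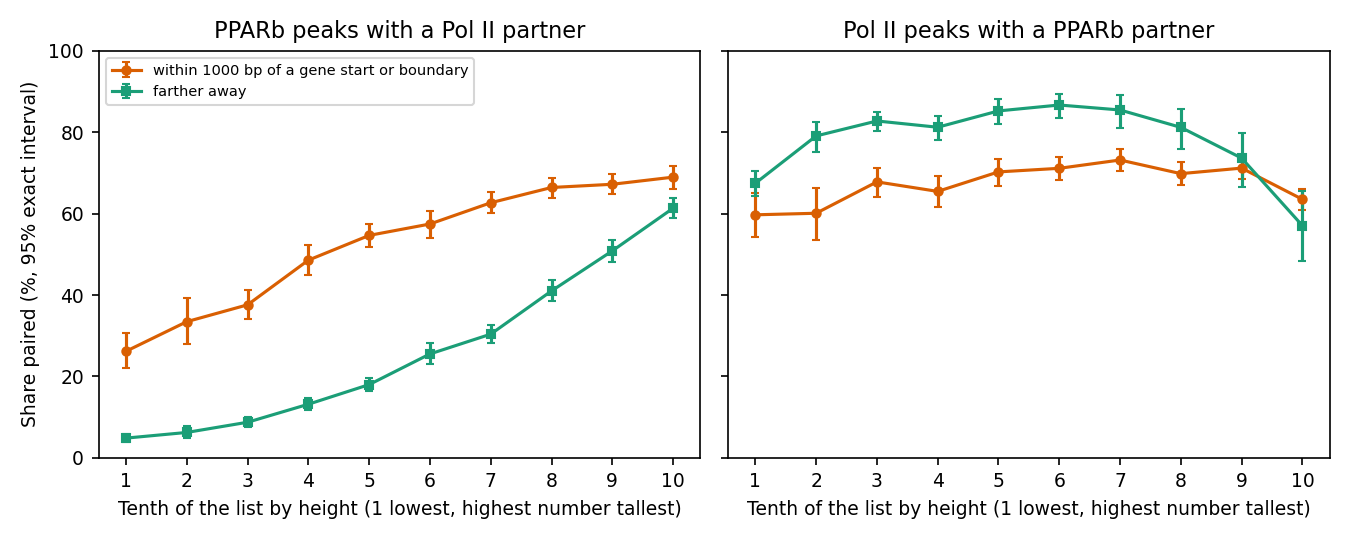
Share of peaks with a partner, in percent with 95% exact intervals, in 10 classes of height from lowest to tallest, for PPARb peaks (left) and Pol II peaks (right), near a gene start or boundary (orange) and farther away (green). The PPARb curves climb, from 26.2% to 69.0% near and from 4.85% to 61.3% far; the Pol II curves bend down in the tallest class, to 63.5% near and 57.0% far.

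At the 9639 pairs, counted by PPARb peak, the 2 heights went together only loosely. Their rank correlation across sites was 0.254 (Spearman rho; 0.246 at 5560 sites near starts and 0.468 at 4079 farther away). It is a description of sites that share both libraries, and of a list cut off at low heights in both. From the lowest to the tallest of 5 PPARb classes the median Pol II height was 7.23, 8.44, 9.24, 9.24 and 9.65. The PPARb to Pol II ratio had a median of 1.32 (quartiles 0.978 and 1.75) and ran from 0.113 to 4.64. PPARb was the taller at 60.0% of pairs near starts, where the median ratio was 1.11, and at 90.9% of those farther away, where it was 1.66. Because the libraries differ in how much of each signal lies in peaks, a ratio of 1 has no meaning of its own and only the differences between sites do.

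**Figure D4:**
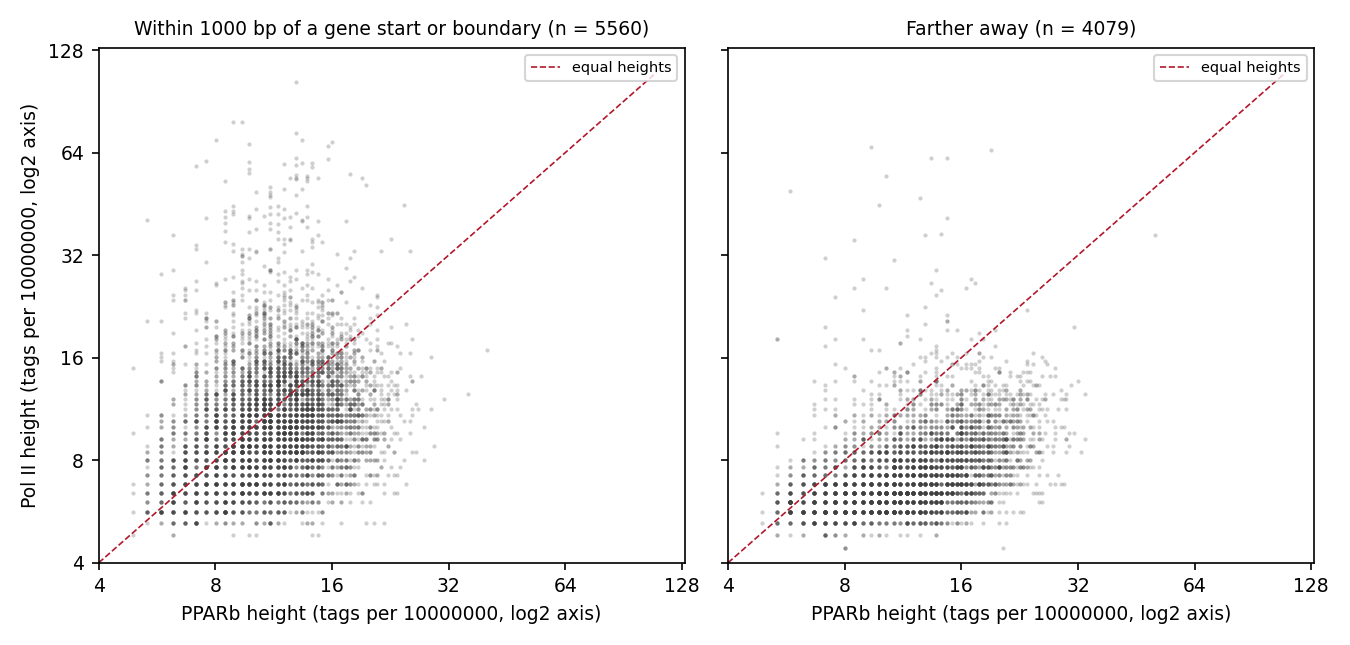
PPARb height against Pol II height at the paired sites, both in tags per 10000000 on log2 axes, near a gene start or boundary (left, 5560 sites) and farther away (right, 4079 sites). Each point is a pair and the dashed line marks equal heights. Pol II heights above 32 belong mostly to sites near starts, and farther away most points lie under the line (PPARb taller at 90.9%).

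The strongest pairs were taken as those whose lower rank of the 2, within its own list, was highest. Behind Rps12 stood a site on chromosome 8 (PPARb chr8:19784553-19784753), at a pseudogene of the table, Gm10060. Its PPARb height of 50.7 was the tallest of the list, with Pol II at 36.6. It had 15 input tags, and the other 7 of the 8 sites at most 7. Its folds over input, 6.42 for PPARb and 5.78 for Pol II, were the lowest of the 8 sites. The PPARb fold was 6.64 at Rps12, 7.94 at Pkn2 and from 12.67 to 81.08 at the rest. The site also had peaks for HA (81.6) and Qki-5 (66.4) and for Qki-5 of the isolated cells (23.8), each the tallest among the 8 sites. It had no PPARb peak of the isolated cells. Arl6ip1, for a membrane-shaping protein of the endoplasmic reticulum, had PPARb 22.7 (95% exact Poisson interval 16.9 to 29.8) and Pol II 35.8 (28.7 to 44.0). Esyt2, for a tether between that membrane and the cell surface, had 25.4 (19.2 to 32.9) and 33.0 (26.2 to 40.9). Amotl2, a junction protein gene, had 21.4 and 33.0. Smim27 (20.9 and 24.5), Pkn2 (20.9 and 24.1) and Ndufv2, for a subunit of respiratory complex I (20.0 and 22.9), completed the 8. Except for the chromosome 8 site, all of these lay within 146 bp of a listed start, with centres 128 to 191 bp apart.

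The tallest PPARb peaks without Pol II lay mostly inside genes or upstream of them. The tallest, at 39.2 (31.4 to 48.2), stood in Angptl4 (chr17:33779345-33779545), a classical PPAR target whose product inhibits lipoprotein lipase; its nearest Pol II peak was 19516 bp away. A peak of 38.3 in Ldlrad3 (chr2:102130646-102130846) stood 55714 bp from the nearest start. A peak of 36.5 (29.0 to 45.3) lay 2612 bp upstream of the start of Txnip, a regulator of glucose uptake, with Pol II 2648 bp away at that start. Another of 29.8 lay in Camta1 and 1 of 29.4 in Kcna2, a potassium channel gene. The remaining site (chr14:24578740-24578940, 30.7) had Pol II 272 bp away, and the Camta1 peak had it 248 bp away. Thus 2 of these 6 were near misses of the pairing rule and the other 4 were not.

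HA and PPARb antibodies both see the introduced receptor, and the HA list, called against the same input, had a peak at 5 of these 6 sites. It was highest at Angptl4, at 99.0, and reached 72.9 upstream of Txnip, 59.4 in Ldlrad3, 38.0 at the chromosome 14 site and 31.7 at Kcna2. The isolated cells, with no introduced receptor in their labels, had a PPARb peak at 2 of the 6, of 19 at Angptl4 and 7.61 upstream of Txnip.

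Of the 6 tallest Pol II peaks without PPARb 5 lay within 1000 bp of a protein-coding start. After Gadd45g came Malat1, an abundant nuclear long noncoding RNA, at 76.4 (65.9 to 88.0) with PPARb 969 bp away. Ints6, for a subunit of the Integrator complex, had 73.1 with PPARb 492 bp away. Insig1, for a sterol sensor, had 71.5 with PPARb 625 bp away. Gtf2a1, for a subunit of TFIIA, and Brd2, for a reader of acetylated histones, both had 68.7, with PPARb 278 and 1943 bp away. In 5 of the 6 a PPARb peak lay within 1000 bp. The HA list had a peak at 2 of the 6 Pol II sites, of 18.2 at Gadd45g and 17.4 at Insig1, so the tagged receptor was listed there although the PPARb list had no peak within reach.

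The most unequal pairs showed the same division by position. The highest PPARb to Pol II ratios were in Erbb4, a neuregulin receptor gene (20.5 and 4.42, ratio 4.64), 2253 bp upstream of Ppfibp2 (29.4 and 6.83), in Tbc1d1 (25.8 and 6.03) and in Stx8 (28.9 and 6.83), the nearest of them 2253 bp from a start or boundary. The lowest were at Atp1b2, for a sodium pump subunit (8.9 and 78.8, ratio 0.113), H3f3b, for histone H3.3 (8.01 and 69.5), a long noncoding RNA, 2610035D17Rik (5.79 and 49.4), and Tob1, an antiproliferative gene (9.35 and 78.8). Of these 4, 3 were within 119 bp of a protein-coding start or boundary.

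By gene, 6064 of 21883 protein-coding genes (27.7%) had a pair within 1000 bp of a start, 2017 (9.22%) PPARb alone, 729 (3.33%) Pol II alone, 1565 (7.15%) both but unpaired, and 11508 (52.6%) neither. Across all genes the median heights at the strongest pair were 11.6 for PPARb and 10.4 for Pol II. Members of 14 lists, with 332 genes in all, are read against these shares. A median over such genes describes only those that have a pair. Of the 8358 genes with any Pol II peak near a start, 72.6% had a pair. Read this way, 75.0% of ribosomal protein genes with Pol II, 73.7% of pausing and elongation genes, 73.3% of receptor and cofactor genes and 72.7% of Pol II subunit genes had one, all close to that background. The share was 66.7% for fatty acid oxidation, 61.9% for histones, 58.8% for cholesterol synthesis, 57.1% for general initiation factors and 55.0% for heat shock and chaperonin genes. It was 41.7% for early response genes and 37.5% for lineage factors. Of known PPAR targets with Pol II 2 of 8 had a pair, and of myelin genes with Pol II none of 3.

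**Figure D5:**
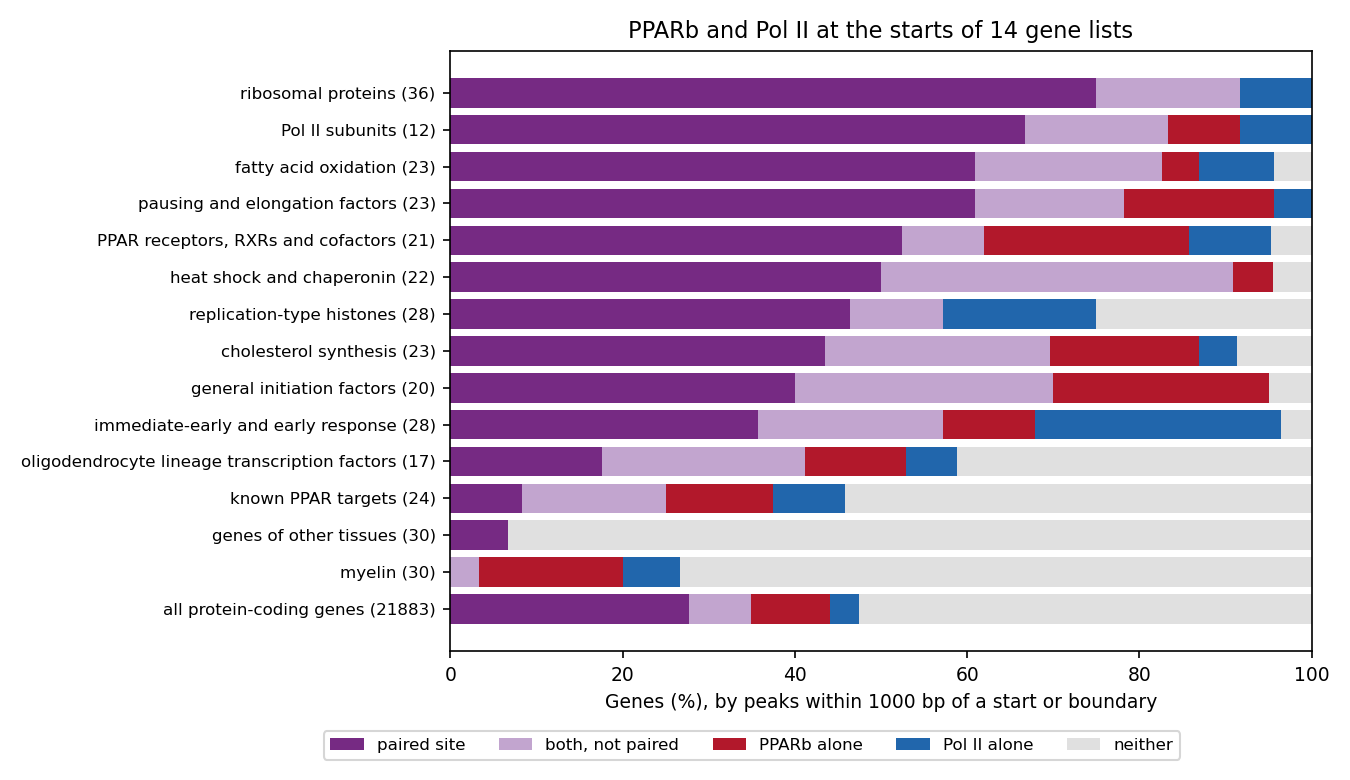
Share of genes, in percent, with a pair, both unpaired, PPARb alone, Pol II alone or neither within 1000 bp of a start or boundary, for 14 gene lists (number of genes in brackets) ordered by their share of pairs, and for all protein-coding genes at the bottom. Ribosomal protein genes lead with 75.0% and the myelin list has 0, against 27.7% of all genes.

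The 2 lists that PPARb is known for went different ways. Of 23 fatty acid oxidation genes 14 (60.9%) had a pair, 5 both unpaired, 1 PPARb alone, 2 Pol II alone and 1 neither. The strongest pairs were at Eci1, for an isomerase of unsaturated fatty acids (PPARb 18.2, Pol II 20.9), Etfa, the partner of Etfb (16.9 and 12.1), and Echs1, for the enoyl-CoA hydratase of mitochondria (11.6 and 12.5). The tallest unpaired Pol II peak was the 13.7 shared by Hadha and Hadhb, for the 2 chains of the trifunctional protein, with PPARb of 12.9 at 343 bp. Both proteins thus had a peak near the start of 19 of the 23 genes. Of genes with Pol II near a start, 2 of 21 in this list had it alone, against 729 of 8358 over all genes. Having both is therefore not read as a trait of this list.

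Of 24 known PPAR targets, a list that shares genes with the oxidation list, 2 had a pair (8.33%), 4 both unpaired, 3 PPARb alone, 2 Pol II alone and 13 (54.2%) neither. The share with neither was close to the 52.6% of all genes. Angptl4 was counted under neither. It had no listed start, and its PPARb peaks lay 2130 and 2018 bp from a gene end. The pairs were at Acaa2, for a mitochondrial thiolase (19.1 and 8.44), and Vldlr, for a lipoprotein receptor (5.79 and 5.63). Acot1, for an acyl-CoA thioesterase, had PPARb 17.4 and Pol II 16.5 at 294 bp from each other. Plin2, Plin4 (10.2) and Slc25a20 (8.9), a carnitine carrier gene, had PPARb alone. Cpt1a and Txnip had Pol II alone at the start, at 7.64 and 49.4. Within 5000 bp of the start 7 of the 24 had a pair. Over the 332 list genes pairs rose from 132 to 153 with this wider window. No share of all genes within 5000 bp is given, so the rise is not read as a trait of PPAR targets.

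At Angptl4 and Cpt1a tall PPARb peaks lay inside the gene. In Cpt1a a pair of PPARb 22.7 (16.9 to 29.8) and Pol II 7.64 (4.6 to 11.9) lay 2239 bp downstream of the start (PPARb chr19:3325440-3325640), apart from the Pol II peak of 7.64 at the start. The HA height there was 122.8, the tallest of the whole HA list. A second PPARb peak near Angptl4, of 12.9, lay 2018 bp outside a gene end. Pdk4, for the kinase that shuts off pyruvate dehydrogenase and a strong PPAR target in muscle, had no peak of either list within 5000 bp of the gene (chr6:5483351-5496278).

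The receptor and its partners were themselves bound. Of 21 genes for PPARs, RXRs and their cofactors 11 (52.4%) had a pair, 2 both unpaired, 5 PPARb alone, 2 Pol II alone and 1 neither. Rxrb (17.8 and 14.9), the corepressor gene Nrip1 (13.8 and 14.5) and Crebbp, for a histone acetyltransferase (12.9 and 12.1), had the strongest pairs. Ppargc1a, for the coactivator PGC-1 alpha, had the tallest unpaired PPARb peak, at 15.6 with the nearest Pol II 91458 bp away. Ep300, the relative of Crebbp, had the tallest unpaired Pol II peak, at 16.9 with PPARb 275 bp away.

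Ppard itself had Pol II alone at its start, at 11.7 (7.81 to 16.7) and 111 bp downstream. Its 2 pairs lay inside the gene, of PPARb 14.2 and Pol II 9.24 at 3668 bp and of 7.12 and 5.63 at 12208 bp downstream of the start. Rxra had a pair at its start (11.1 and 10.0) and 2 more in the gene (18.2 and 5.63, 11.6 and 5.22). Qk, which encodes Quaking, had a pair 652 bp upstream of a start (11.6 and 16.9) and Pol II alone 137 bp downstream of it, at 17.3. The Pol II peak at the Ppard start, without a partner in the PPARb list, had an HA peak of 18.2 and an isolated-cell PPARb peak of 6.53, and the one 137 bp from the Qk start had neither.

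Of 23 cholesterol synthesis genes 10 (43.5%) had a pair, 6 both unpaired, 4 PPARb alone, 1 Pol II alone and 2 neither. Mvk, for mevalonate kinase (22.3 and 10.4), and Srebf2, for the regulator of the pathway (12 and 10.4), were among the strongest pairs. Hmgcs1 had the tallest unpaired PPARb peak together with Sqle, 15.6 at each, with Pol II 337 bp away at Hmgcs1. Insig1 had the tallest unpaired Pol II peak.

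Every Pol II subunit and elongation gene listed had a peak of at least 1 of the lists, while 52.6% of all genes had neither. Among genes with Pol II, their shares of pairs, 72.7% and 73.7%, were close to the 72.6% of all genes. Of 12 Pol II subunit genes 8 had a pair (66.7%), led by Polr2b (16.5 and 12.1), Polr2a and Polr2j (15.1 and 11.3), with unpaired PPARb tallest at Polr2i (15.6, Pol II 13.7 at 240 bp), which also had the tallest unpaired Pol II. Of 23 pausing and elongation genes 14 had a pair (60.9%) and 4 both unpaired. Cdk13 (18.7 and 22.5), Aff4 of the super elongation complex (18.7 and 16.9) and Cdk9, the kinase that releases paused Pol II (12.9 and 14.5), led them. Ccnt2, for a cyclin partner of Cdk9, had the tallest unpaired PPARb peak, 28.5 with Pol II 16.9 at 212 bp. The tallest unpaired Pol II peaks of that list were at 16.9, at Ccnt2, and 14.9, at Cdk12 and Paf1.

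Of 20 general initiation factor genes 8 (40.0%) had a pair, 6 both unpaired, 5 PPARb alone and 1 neither. Gtf2h3 (20.0 and 14.5), Gtf2b, for TFIIB (13.4 and 40.6), and Gtf2a2 (14.7 and 10.9) led. Gtf2h1, for a subunit of TFIIH like Gtf2h3, had the tallest unpaired PPARb peak, 22.3 with Pol II 419 bp away. PPARb alone stood at Gtf2h4 (19.6) and at Tbp, for the TATA-binding protein (15.6). The nearest Pol II peak to the Gtf2h4 site was 124134 bp away, and a low Pol II level there was not detectable at this depth.

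Ribosomal protein genes had the largest share of pairs of the 14 lists, and all of them had Pol II. Of 36 ribosomal protein genes 27 (75.0%) had a pair, 6 both unpaired and 3 Pol II alone, and none had PPARb alone. Rpl23 (20.9 and 19.3), Rps7 (15.6 and 14.5) and Rpl32 (14.7 and 17.7) led. Rps19 had the tallest unpaired PPARb peak, 19.6 with Pol II at 242 bp, and Rpl3 the tallest unpaired Pol II peak, 56.3 with PPARb 7913 bp away. At Gapdh, a glycolytic enzyme gene, the pair was 9.79 (6.14 to 14.8) and 57.1 (48.1 to 67.3). In Actb, for cytoskeletal actin, pairs of 9.35 and 66.3 and of 17.4 and 26.5 lay 1270 and 1959 bp from a gene end. At both genes Pol II was far taller than at a typical pair while PPARb was not.

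Of 22 heat shock and chaperonin genes 11 (50.0%) had a pair and 9 (40.9%) both unpaired, against 27.7% and 7.15% of all genes. Among genes with any Pol II peak near a start, both unpaired were 9 of 20 in this list and 1565 of 8358 in all. Cct4 (16.9 and 16.5), Tcp1 (23.6 and 12.9) and Cct7 (13.4 and 16.1), all for subunits of the cytosolic chaperonin, led. Hspd1 and Hspe1, which share a start region and encode the mitochondrial chaperonin pair, had the tallest unpaired PPARb peak, 28.9 with Pol II 12.9 at 306 bp. The same peaks are counted at both genes. Dnaja1, for a co-chaperone of Hsp70, had the tallest unpaired Pol II peak, 48.6 with PPARb at 203 bp. The unpaired members were thus again starts with both peaks side by side.

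Genes that respond within minutes to signals had tall Pol II and ordinary PPARb. Of 28 immediate-early and early response genes 10 (35.7%) had a pair, 6 both unpaired, 3 PPARb alone, 8 (28.6%) Pol II alone and 1 neither. At their pairs the median was 10.9 for PPARb and 25.9 for Pol II, against 11.6 and 10.4 over all genes with a pair. Fosl2 (16.9 and 13.3), Junb (13.8 and 52.7) and the DNA damage gene Gadd45a (11.6 and 26.9) ranked first. Among the other pairs Pol II reached 60.3 at Gadd45b and 58.3 at Btg2, with PPARb at 7.57 and 7.12. Zfp36, for a protein that degrades cytokine mRNA, had the tallest unpaired PPARb peak, 19.1 with Pol II of 32.2 at 314 bp. Pol II alone stood at Zfp36l1 (54.3), Ier5 (51.4), Ier2 (39.4), Klf6 (38.6) and Myc (29.3). Within 5000 bp of a start 3 genes of this list, in place of 8, had Pol II alone.

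Histone genes had a like pattern. The list holds genes of the replication clusters and H1f0, which encodes a linker histone made outside replication and lies apart from them. Of 28 genes 13 (46.4%) had a pair, 3 both unpaired, 5 Pol II alone, none PPARb alone and 7 neither, and at the pairs the median was 12 for PPARb and 22.9 for Pol II. H1f0 (15.1 and 22.5), H4c3 (14.2 and 33.8) and H4c4 (13.8 and 54.7) led. H3c6, which also had a pair, had the tallest unpaired PPARb peak, 9.35 with Pol II 954 bp away. H3c1 and H4c1 shared the tallest unpaired Pol II peak, 39.8 with PPARb of 8.01 at 220 bp. Many of the clustered genes are near-identical and lie close together, so which copy a read belongs to, and which gene a peak, is uncertain.

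Most myelin genes had no peak near a start. None of 30 had a pair near a start, 1 had both unpaired (Car2, 9.35 and 6.83), 5 (16.7%) PPARb alone, 2 Pol II alone and 22 (73.3%) neither. PPARb alone was thus at a larger share than over all genes (9.22%). General initiation factors, receptors and cofactors, cholesterol synthesis, and pausing and elongation genes had larger shares still. In the remaining lists it was smaller than for myelin. With either gene end in place of listed starts 4 of the 30 had PPARb alone. Within 5000 bp of a start 11 of the 30 had PPARb alone and 2 a pair. No share of all genes within 5000 bp is given, so these counts have no background. The tallest unpaired PPARb peak was at Gjc3, a glial connexin gene (12.5), with Pol II 3315 bp away, and the tallest unpaired Pol II peak at Cnp (21.7), with PPARb 2986 bp away. Mbp, for myelin basic protein (chr18:82475091-82585637), held a pair of PPARb 17.8 (12.7 to 24.2) and Pol II 6.83 (3.98 to 10.9) inside the gene, 47340 bp from its nearer end. A gene with neither peak may still be transcribed at a level not detectable at this depth.

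Of 17 transcription factor genes of the oligodendrocyte lineage 3 (17.6%) had a pair, 4 both unpaired, 2 PPARb alone, 1 Pol II alone and 7 neither. The pairs were at Zfp24 (20.0 and 17.7), Chd7, for a chromatin remodeller (14.2 and 14.1), and Tcf7l2, for a Wnt effector (12 and 9.65). Yy1 had the tallest unpaired PPARb peak, 17.8, and Sox8 the tallest unpaired Pol II peak, 38.6 with PPARb 5061 bp away. Olig2, counted under neither, had a PPARb peak without Pol II of 14.2 (9.74 to 20.1) farther out, at 2804 bp upstream, and Sox10 had no peak of either list within 5000 bp of the gene. Of 30 genes of other tissues 2 had a pair, Apoa2 (8.46 and 8.04) and Sftpc (8.46 and 7.64), and 28 (93.3%) had neither; within 500 bp none had a pair.

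Promoter sequence was compared among the kinds of start. Starts were classed by peaks within 250 bp, among 21262 listed starts, and each promoter ran from 250 bp before to 50 bp after the start. Pairs stood at 4901 starts, PPARb alone at 1980, Pol II alone at 1024, both unpaired at 711 and neither at 12646. The median GC content was 63.3% with a pair, 60.7% with PPARb alone, 63.3% with Pol II alone and 51.0% with neither. GGGCGG was found in 73.3% (72.0 to 74.5) of promoters with a pair, 66.8% (64.6 to 68.8) with PPARb alone and 74.6% (71.8 to 77.2) with Pol II alone, against 46.2% of all promoters. Starts with both unpaired had a median GC content of 66.7% and GGGCGG in 80.7% (77.6 to 83.6). All bound kinds were thus richer in GC than unbound starts.

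TATAAA was found in 5.37% (4.75 to 6.03) of promoters with a pair, 4.75% (3.85 to 5.78) with PPARb alone and 9.47% (7.75 to 11.4) with Pol II alone, against 12.6% of all. CCAAT was found in 35.5% (34.2 to 36.9) with a pair, 42.6% (40.4 to 44.8) with PPARb alone and 46.8% (43.7 to 49.9) with Pol II alone, against 38.2% of all. Both motifs were thus more frequent where Pol II stood alone than at pairs. Where both stood unpaired TATAAA was found in 4.36% (2.98 to 6.13) and CCAAT in 42.9% (39.2 to 46.6). AGGTCA, a single repeat of the nuclear receptor element, was found in 9.71% (8.9 to 10.6) with a pair, 10.9% (9.52 to 12.3) with PPARb alone, 9.96% (8.2 to 12) with Pol II alone and 17.9% with neither, against 14.7% of all. The direct repeat of this motif with 1 base between (DR1) was in 1 promoter with a pair and in none of the 1980 with PPARb alone, against 10 (0.047%) of all. A match is a string of letters and not a binding site, and its absence concerns only these windows; sequences of peaks away from starts were not used here.

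The isolated cells gave a readout that the pairing did not use, from other cells and another input. Their PPARb list is small, with 1391 peaks. Of all PPARb peaks of the differentiated cells 3.92% had an isolated-cell PPARb peak less than 200 bp away, and of all Pol II peaks 5.16%. The share was 6.52% (6.03 to 7.03) of PPARb peaks with Pol II, against 2.42% (2.19 to 2.67) of those without. Near starts the 2 shares were 9.25% (8.5 to 10.0) and 7.35% (6.57 to 8.19), and farther away 2.79% (2.31 to 3.35) and 0.843% (0.691 to 1.02). Within the tallest of the 5 height classes they were 11.7% (10.6 to 12.8) and 9.71% (8.48 to 11.1), and within the lowest class 0.809% and 0.0849%, on 3 sites each. In each of the 5 height classes the share was higher with Pol II. Among Pol II peaks without PPARb in the differentiated cells 3.25% (2.7 to 3.88) had an isolated-cell PPARb peak.

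Qki-5 peaks of the isolated cells, a list of 8375, were more frequent at all kinds of site. They stood at 20.6% of all PPARb peaks and 28.3% of all Pol II peaks. PPARb peaks with Pol II had one in 35.3% (34.4 to 36.3) of cases and PPARb peaks without Pol II in 12.2% (11.7 to 12.7). Near starts these shares were 52.2% (50.9 to 53.5) and 35.5% (34.0 to 37.0). Pol II peaks with PPARb had one in 47.6% (46.3 to 48.9) near starts, against 21.8% (20.2 to 23.5) of Pol II peaks without PPARb. Near starts a Pol II peak with a PPARb partner thus more often had an isolated-cell Qki-5 peak than one without. Of those without a partner 71.5% still had a PPARb peak within 1000 bp. Starts with and without PPARb were therefore not compared.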

How the data were processed

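Each group had 1 ChIP-seq library. The submitters' processing notes name the build mm10 and, in no order, HOMER 4.10.1, Bowtie 1.2.2 and SAMtools 1.8. Per the file headers the authors called 200 bp peaks with HOMER: the false discovery rate was 0.001, input had to be exceeded 4-fold with a Poisson p of 0.0001, and a window of 10000 bp around the peak 4-fold. The normalized tag count is a signal, set by the authors to a depth of 10000000 tags. The fold over input and over the local background is a ratio from the authors' caller, the focus ratio is a deposited fraction, and the caller's peak score was deposited too and not used.

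Peaks were paired by centre distance, and positions came from RefSeq tables of GRCm38.p6, which list a start for 79.9% of 21883 protein-coding genes and none for the 510 on chromosome 18. All 332 list genes matched. Shares have 95% exact Clopper-Pearson intervals. The scripts (Python 3.11.15, pandas 2.3.3, SciPy 1.17.1) were tested on simulated peaks. With 1 library per group no test was run. The sites, lists and naming rule were chosen with earlier results of these data known. Named sites are the 8 pairs with highest smaller rank, the 6 tallest unpaired peaks of each list, the 4 highest and 4 lowest ratios, per list up to 3 strongest pairs and the tallest unpaired peak of each kind, and 14 genes named in any case. A few genes that this rule names are not reported here.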

Additional observations from a re-analysis of the deposited data

How the results depend on the processing

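With centres at most 50, 100, 500 and 1000 bp apart the paired share of PPARb peaks was 14.1%, 24.56%, 44.01% and 46.57%, and that of Pol II peaks 28.07%, 48.88%, 87.77% and 90.43%. At 8-fold over input in both lists the shares were 28.84% and 59%, and with the PPARb list at the length of the Pol II list 53.04% and 53.04%. They were 36.67% and 73.09% on autosomes alone.

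Near starts within 500 bp were 54.8% of PPARb peaks with Pol II, 20.59% of PPARb peaks without and 63.21% of Pol II peaks without PPARb, and within 5000 bp 62.37%, 32.7% and 76.69%. With either end of every gene in place of listed starts, a setting chosen after seeing the data, they were 53.09%, 22.24% and 64.32%. The order of the 3 kinds held in each.

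PPARb peaks with Pol II exceeded those without by a median of 3.54 in height, 1.81 near starts and 4.49 farther away, and by 2.53 in fold over input and 1.73 in fold over local background. For Pol II the difference between peaks with and without PPARb was 0 in height, 0.4 farther away from starts, -0.76 in fold over input and 0.63 in fold over local background, so its sign turned with the measure. The rank correlation was 0.2539, and 0.4678 away from starts. Over the 14 lists 27 genes had Pol II alone, and 16 with a window of 5000 bp. The cause of these shifts was not tested. Totals of pairs and of PPARb alone over the 14 lists stayed within 1.5 times under each window, but of 42 counts by list 6 moved further at 500 bp, 13 at 5000 bp and 9 with either gene end.

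No paired analysis was possible because each group had 1 library and the labels give no replicate numbers, so leaving out a library leaves no comparison. A weak Pol II peak away from starts, or one under the 4-fold requirement, was not detectable at this depth.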

Other observations

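On the X chromosome pairs were fewer. Of 398 PPARb peaks on X 105 had Pol II, 26.4% (22.1 to 31.0), against 36.7% on the autosomes, which ranged from 32.8% to 40.2%. Of 224 Pol II peaks on X 105 had PPARb, 46.9% (40.2 to 53.6), against 73.1% on the autosomes, which ranged from 69.2% to 78.6%. X peaks were low, with medians of 7.12 for PPARb and 6.83 for Pol II against 9.79 and 8.84 in the whole lists, and a median of 1.0 input tag against 2.0. By position the PPARb share on X was lower both near starts, at 42.3% against 58.1%, and farther away, at 11.3% against 24.5%. By height it had no one direction. From the lowest to the fourth of 5 classes it was 24.5%, 22.6%, 32.4% and 40.0% on X, against 8.9%, 19%, 34.3% and 49.6% on the autosomes, and the tallest class held 4 X peaks. For Pol II peaks the X share was lower in all 5 height classes, at 50.7% against 68.8% in the lowest and 35.0% against 67.3% in the tallest.

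Noncoding RNA genes, chosen after their values were seen, were split by class, some of them with few peaks. Within 100 bp of a small nuclear RNA gene lay 19 Pol II peaks, of which 5 had PPARb and 14 did not (26.3% paired). The tallest of the 14 were at Rnu1a1 (67.1), Gm22513 (59.9) and Rnu11 (57.9). Near microRNA genes 20 Pol II peaks had PPARb and 6 did not (76.9% paired), and near small nucleolar RNA genes 2 had it and 2 did not. At tRNA genes, which are transcribed by Pol III, there were 5 PPARb peaks with Pol II and 14 without, up to 13.4 and 9.79. The share with Pol II was 26.3%, against 36.5% of all PPARb peaks. Near long noncoding RNA genes 1080 Pol II peaks had PPARb and 406 did not (72.7% paired), close to the 72.6% of the whole list. Copies of small nuclear RNA and tRNA genes are near-identical, so the assignment of their reads is uncertain.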
